A study of Mus musculus with 15 samples.

Results

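Fatty acid oxidation in liver and kidney is run by a known set of enzymes and by the nuclear receptor PPARA, and 35 genes of this system were followed over the 4 tissues of a hepatocyte transplantation study in mice. The genes were listed by name, from knowledge of the pathway and with earlier results of these data known. Each was matched to its array probe by RefSeq accession. All 35 passed the filter on dim probes and were among the 15622 genes tested. Levels were measured in total RNA with one-colour Agilent microarrays, 1 array for each of 15 tissue samples of female FVB/N mice.

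The neo-liver group held 4 samples of ectopic liver tissue microdissected out of the kidneys of host mice, where donor hepatocytes had been placed beneath the capsule. The host liver group held 4 samples of the hosts' own injured liver, and the host kidney group 4 samples of the hosts' kidney; the labels do not say whether this was the kidney that carried the graft. All hosts were wild-type FVB/N recipients that at 7 to 9 weeks of age entered a model of chronic liver injury: 2 injections of monocrotaline, a plant alkaloid toxic to liver, at 70 mg/kg each and 2 weeks apart, followed by 1000000 hepatocytes of FVB/N donors (8 to 20 weeks old) that carried a human α1-antitrypsin transgene. Host tissues were taken on days 250 to 300, at an age of 48 to 55 weeks. The control liver group held livers of 3 normal mice aged 20 weeks, so that age, monocrotaline and transplantation cannot be told apart in any comparison with control liver.

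Fatty acids enter the pathway as acyl-CoA esters, cross into mitochondria as carnitine esters and are shortened there in rounds of dehydrogenation, hydration, a second dehydrogenation and thiolysis. Very long chains are first shortened in peroxisomes, and the acetyl-CoA made in liver mitochondria can leave the organ as ketone bodies. PPARA, which fatty acids activate, binds DNA together with RXR at direct repeats of a hexamer and raises the transcription of most of these enzymes in the fasting liver, and kidney proximal tubule is a second tissue that burns fatty acids and expresses PPARA.

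Promoter sequences of the listed genes were read from RefSeq (GRCm38.p6) as the 250 bases before and 50 bases after a gene start, and 35 such windows were found for 30 of the genes. The PPARA and RXR type of repeat, AGGTCANAGGTCA, was in 0 of these 35 windows on either strand and in 0.0396% of all 32851 windows of the table. With 1 free base in each copy, AGGNCANAGGNCA, it was in 1 of the 35, that of Fabp1, and in 0.381% of all windows. The single hexamer AGGTCA, which the longer exact form contains, was in 9 of the 35 windows, those of 8 genes, and in 16.3% of all windows. These are matches of letters in a short window and say nothing of binding. Upstream bases are shown as 4 stretches, each 5′ to 3′ on the strand of the gene. Fabp1 is shown because it holds the repeat (capitals). Creb3l3 and Acadm are shown because their levels carry results given further on (capitals mark the hexamer). Of the 2 starts of Creb3l3 only the one whose window holds the hexamer is shown. The stretch shared by Hadha and Hadhb is shown because these genes start head to head and code the 2 subunits of 1 enzyme. In Fabp1 the capitals start 67 bases before the gene start and read on the opposite strand, and a further hexamer starts 9 bases before it and is left in lower case.
Fabp1, chr6:71199629-71199878, plus strand: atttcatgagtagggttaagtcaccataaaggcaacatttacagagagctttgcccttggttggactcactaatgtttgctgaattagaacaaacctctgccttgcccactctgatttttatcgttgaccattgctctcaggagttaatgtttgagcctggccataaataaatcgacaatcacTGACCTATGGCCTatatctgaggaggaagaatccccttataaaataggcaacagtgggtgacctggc
Creb3l3, chr10:81092592-81092841, minus strand, the downstream of its 2 starts: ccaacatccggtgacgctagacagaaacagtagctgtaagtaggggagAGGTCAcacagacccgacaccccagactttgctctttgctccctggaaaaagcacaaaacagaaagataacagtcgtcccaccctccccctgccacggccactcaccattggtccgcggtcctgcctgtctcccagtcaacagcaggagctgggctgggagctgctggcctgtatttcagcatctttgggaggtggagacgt
Acadm, chr3:153944644-153944893, minus strand: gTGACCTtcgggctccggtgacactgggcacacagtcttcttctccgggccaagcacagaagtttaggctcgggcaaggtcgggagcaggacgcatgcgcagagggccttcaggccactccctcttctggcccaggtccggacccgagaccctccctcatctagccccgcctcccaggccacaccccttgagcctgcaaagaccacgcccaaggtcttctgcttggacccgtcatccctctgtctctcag
Hadha and Hadhb, chr5:30155003-30155230, plus strand (that of Hadhb): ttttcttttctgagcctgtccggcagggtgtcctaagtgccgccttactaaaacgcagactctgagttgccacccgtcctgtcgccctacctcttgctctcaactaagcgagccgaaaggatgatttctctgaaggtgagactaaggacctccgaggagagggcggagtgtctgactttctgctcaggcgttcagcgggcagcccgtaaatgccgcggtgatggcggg
The starts of Hadha and Hadhb lie 272 bases apart on opposite strands, so the 228 bases printed are upstream of both.

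Facts of the arrays that touch the results are these. Neo-liver was dissected from kidney, and 26 markers of kidney tubule put its kidney content at 18.9%, 49.3%, 19.6% and 35.9% of the host kidney signal on neo-liver arrays 1 to 4, against at most 0.0465% on host liver arrays. The estimate depends on the markers: those of proximal tubule alone gave 25.3%, 66.6%, 23.1% and 41.3%, and those of distal tubule 13.2%, 37.3%, 14.9% and 21.1%. Markers of hepatocytes were above background on every neo-liver array for 10 of 10 genes, with a summed linear level of 3698 to 5835 times the 75th percentile in neo-liver, 6549 to 9931 in host liver, 9.45 to 11.3 in host kidney and 6253 to 6665 in control liver. Because the samples are bulk tissue, fewer cells of a type and less RNA per cell cannot be told apart. The host kidney arrays lay together on 1 slide and the host liver arrays on 2 others, so that slide and tissue cannot be told apart where either is compared; neo-liver and control liver shared 1 slide. The labels number the samples 1 to 4 in each host tissue. Residuals of arrays with the same number were correlated between tissues for all 12 pairs (r across genes 0.179 to 0.577), so a number is taken here to stand for 1 mouse, which the labels do not state.

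Levels below are log2 of the processed signal relative to the 75th percentile of the array, listed in the order of the array numbers, and levels of different genes are not compared because probes differ in response. Differences are log2 differences ± SE from 1 limma fit of all 15 arrays, and a gene is called where the p, adjusted by Benjamini-Hochberg over the 15622 genes, is under 0.05. Between neo-liver and host liver 17 of the 35 were called lower in neo-liver and 0 higher, where 31.5% of all genes tested were lower and 17.1% higher. Of the 35, 12 were lower and 2 higher in neo-liver than in control liver (29.8% and 20.4% of all genes). Host liver and control liver differed in 2 genes that were higher and 2 that were lower in host liver (13.4% and 11.2%). Relative to host kidney, neo-liver had 11 higher and 1 lower (23.2% and 29.5%), and host liver had 23 higher and 1 lower (39.6% and 31.2%). The heat map of levels relative to control liver shows all 35 on the 15 arrays.

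**Figure D1:**
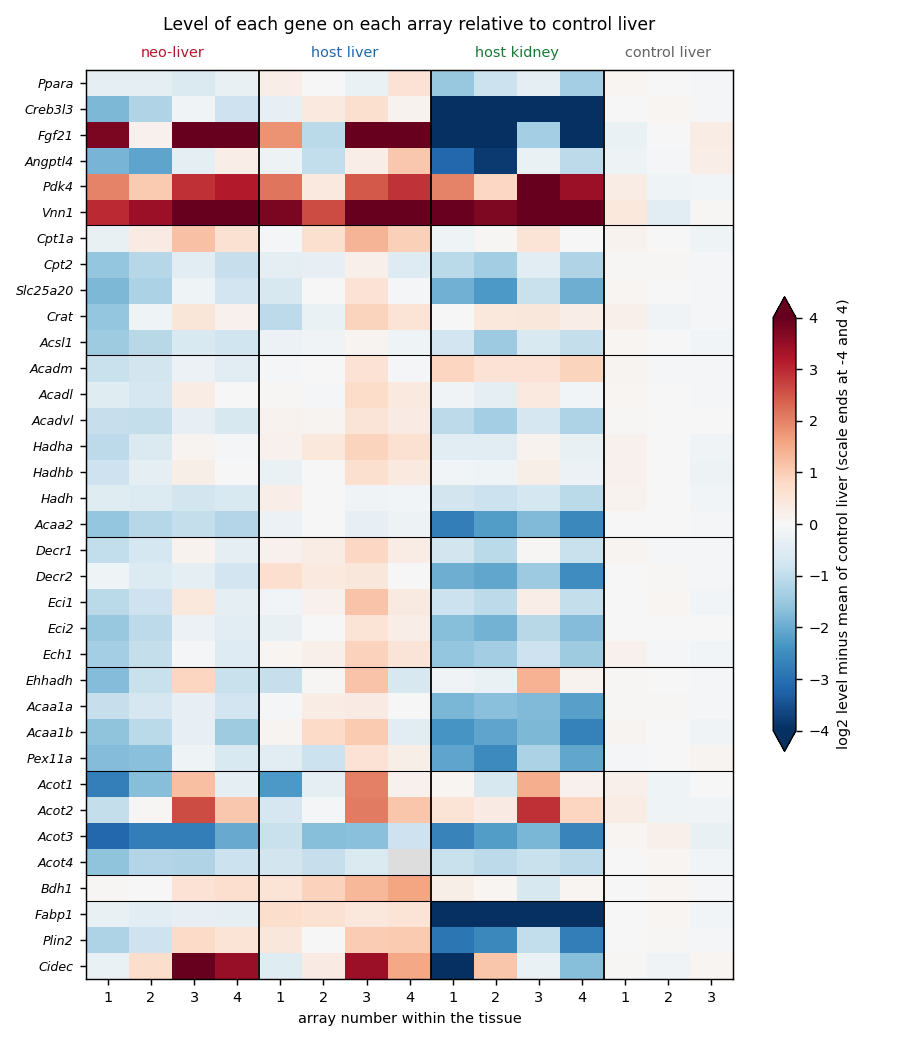
Log2 level of each of the 35 genes on each array minus the mean of the 3 control livers (colour), with arrays in columns, grouped as neo-liver, host liver, host kidney and control liver, and genes in rows, grouped by role (black lines). Most rows are bluer in neo-liver than in host liver, Vnn1 is red on all 12 host arrays, the third column of each host tissue is often the reddest, and the grey cell is an Acot4 spot that was left out.

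Of the 6 regulators and targets outside the oxidation pathway itself, 2 were called against control liver in neo-liver, both higher, and 0 against host liver. Over all genes, 20.4% were higher against control liver, and 31.5% were lower and 17.1% higher against host liver. Counts over 6 genes are too few to tell from these shares. Ppara, the receptor itself, had levels of 4.93, 4.93, 4.75 and 5.02 in neo-liver, 5.57, 5.34, 5.04 and 5.90 in host liver, 3.79, 4.45, 4.94 and 3.96 in host kidney and 5.39, 5.31 and 5.25 in control liver. Its neo-liver arrays lay below all of host liver and of control liver, but the differences of -0.55 ± 0.23 from host liver and -0.41 ± 0.25 from control liver were not called, and the gene's kept probes disagreed in sign in these comparisons. With mouse number as a block, the difference from host liver was called (-0.55 ± 0.12). Ppara was higher than in host kidney both in neo-liver (0.62 ± 0.23) and in host liver (1.18 ± 0.23).

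Creb3l3, a membrane-bound transcription factor of liver that acts with PPARA on fasting genes, had levels of 4.76, 5.37, 6.43 and 5.73 in neo-liver, 6.23, 6.96, 7.23 and 6.72 in host liver, -2.23, -2.88, 1.41 and -2.73 in host kidney and 6.58, 6.64 and 6.50 in control liver. Liver tissues and kidney were far apart for this gene, with 7.18 ± 0.74 for neo-liver and 8.39 ± 0.74 for host liver against host kidney, and kidney array 3 stood above the other kidney arrays. Against host liver the neo-liver difference of -1.21 ± 0.74 was not called, although neo-liver was lower within each mouse number, and was called under the block (-1.21 ± 0.16).

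Fgf21, a hormone that the liver releases in fasting, had levels of 1.15, -2.43, 4.63 and 4.70 in neo-liver, -0.82, -3.70, 2.88 and 4.12 in host liver, -7.59, -7.90, -3.97 and -7.93 in host kidney and -2.88, -2.63 and -2.32 in control liver. In neo-liver and host liver alike, arrays 3 and 4 were high and array 2 was low: neo-liver array 2 lay within the control livers and host liver array 2 below them, so the groups overlapped. The differences of 4.62 ± 1.92 (neo-liver) and 3.23 ± 1.92 (host liver) from control liver were not called. Against host kidney, where Fgf21 was above background on array 3 alone, it was higher in neo-liver by 8.86 ± 1.78 and in host liver by 7.47 ± 1.78; the kidney mean includes 3 values below background.

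Vnn1, a membrane pantetheinase that frees pantothenate for coenzyme A and is a strong PPARA target in liver, had levels of 0.82, 1.24, 4.22 and 3.19 in neo-liver, 1.60, 0.43, 4.79 and 3.60 in host liver, 1.76, 1.55, 4.68 and 2.14 in host kidney and -1.76, -2.63 and -2.14 in control liver. All 12 host arrays were above all 3 control livers. Vnn1 was higher than in control liver by 4.54 ± 1.07 in neo-liver (adjusted p = 0.00325) and by 4.78 ± 1.07 in host liver (adjusted p = 0.0066), and both comparisons share the same controls. Within the hosts the 3 tissues overlapped, with -0.24 ± 0.99 for neo-liver against host liver.

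Pdk4, the kinase that shuts pyruvate dehydrogenase when fat is burned, had levels of 1.83, 0.87, 2.77 and 3.02 in neo-liver, 1.96, 0.24, 2.30 and 2.73 in host liver, 1.81, 0.66, 4.43 and 3.26 in host kidney and 0.14, -0.35 and -0.29 in control liver. It was higher in neo-liver than in control liver, without overlap (2.29 ± 0.81). That call was lost when any control array, neo-liver array 3 or neo-liver array 4 was left out. Host liver was also above control liver without overlap, but 1.97 ± 0.81 was not called.

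Angptl4, a secreted inhibitor of lipoprotein lipase, had levels of 4.15, 3.90, 5.63 and 6.29 in neo-liver, 5.81, 5.04, 6.29 and 7.09 in host liver, 2.87, 2.18, 5.75 and 4.99 in host kidney and 5.81, 5.95 and 6.29 in control liver. Arrays 3 and 4 were the highest in each host tissue, and the only call in the fit of all arrays was host liver against host kidney (2.11 ± 0.75), which was lost without host kidney array 1 or 2 or host liver array 4.

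Of the 5 genes of activation and the carnitine shuttle, 3 were lower in neo-liver against host liver (31.5% of all genes). The same 3, Cpt2, Slc25a20 and Acsl1, were lower against control liver (29.8% of all genes). Cpt1a, the outer-membrane enzyme that sets the rate of entry, had levels of 4.18, 4.80, 5.66 and 5.09 in neo-liver, 4.42, 5.12, 5.82 and 5.42 in host liver, 4.29, 4.53, 5.02 and 4.46 in host kidney and 4.63, 4.49 and 4.31 in control liver. The groups overlapped, with no call in the fit of all arrays (-0.27 ± 0.32 for neo-liver against host liver and 0.46 ± 0.34 against control liver). With mouse number as a block, Cpt1a was called lower in neo-liver against host liver (-0.27 ± 0.07). Cpt2, which rebuilds the acyl-CoA inside, had levels of 4.81, 5.21, 5.91 and 5.42 in neo-liver, 5.99, 6.03, 6.57 and 5.85 in host liver, 5.28, 4.96, 5.92 and 5.15 in host kidney and 6.40, 6.39 and 6.27 in control liver. The neo-liver arrays were all below control liver, neo-liver array 3 lay above host liver array 4, and Cpt2 was lower in neo-liver against both (-1.02 ± 0.26 against control liver and -0.77 ± 0.24 against host liver). The call against host liver was lost without host liver array 3 or neo-liver array 1.

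Slc25a20, the carrier that moves acylcarnitines across the inner membrane, had levels of 1.19, 1.71, 2.81 and 2.19 in neo-liver, 2.33, 2.98, 3.54 and 2.93 in host liver, 1.06, 0.67, 2.07 and 1.02 in host kidney and 3.07, 2.97 and 2.88 in control liver. Neo-liver was the lower tissue against host liver (-0.97 ± 0.36) and against control liver (-1.0 ± 0.39); each call was lost when any of 6 arrays was left out. Acsl1, which activates long-chain fatty acids to acyl-CoA, had levels of 5.81, 6.11, 6.60 and 6.41 in neo-liver, 6.98, 7.07, 7.31 and 7.05 in host liver, 6.44, 5.76, 6.60 and 6.27 in host kidney and 7.31, 7.22 and 7.12 in control liver. Here neo-liver lay below every array of host liver (-0.87 ± 0.19) and of control liver (-0.99 ± 0.20), and both calls held without any 1 array. Crat, which handles short acylcarnitines, ran between -2.58 and -0.15 over the host arrays and -1.16 and -0.84 in control liver, and was not called in the fit of all arrays.

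Of the 7 genes of the mitochondrial spiral, neo-liver was lower in 5 against host liver and in 4 against control liver (31.5% and 29.8% of all genes). Acadm, the medium-chain dehydrogenase, had levels of 6.56, 6.71, 7.22 and 7.01 in neo-liver, 7.39, 7.44, 8.02 and 7.41 in host liver, 8.30, 8.01, 8.02 and 8.32 in host kidney and 7.55, 7.40 and 7.38 in control liver. Its neo-liver arrays lay below every array of the other 3 tissues, and Acadm was lower in neo-liver than in host liver (-0.69 ± 0.17, adjusted p = 0.00486), control liver (-0.57 ± 0.18) and host kidney (-1.29 ± 0.17, adjusted p = 3.04e-05). It was the only one of the 35 genes called lower in neo-liver than in both host organs (3.6% of all genes tested), and 0 were called higher than in both (1.16%). The call against control liver did not hold without neo-liver array 1 or control liver array 1, and those against host liver and host kidney held without any 1 array.

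Acadvl, the very-long-chain dehydrogenase, had levels of 6.69, 6.65, 7.28 and 6.97 in neo-liver, 7.77, 7.72, 8.14 and 7.93 in host liver, 6.57, 6.25, 6.93 and 6.39 in host kidney and 7.64, 7.58 and 7.61 in control liver. Neo-liver was below all of host liver (-0.99 ± 0.17) and of control liver (-0.71 ± 0.18). Acadl, the long-chain dehydrogenase, had levels of 3.39, 3.20, 4.18 and 3.87 in neo-liver, 3.92, 3.81, 4.61 and 4.26 in host liver, 3.73, 3.49, 4.26 and 3.76 in host kidney and 3.93, 3.87 and 3.80 in control liver. The groups overlapped with no call in the fit of all arrays, and Acadl was called lower against host liver under the block (-0.49 ± 0.07).

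Hadha and Hadhb, the 2 subunits of the trifunctional protein that carries out the later steps on long chains, gave different calls. Hadha had levels of 1.29, 1.75, 2.41 and 2.23 in neo-liver, 2.49, 2.73, 3.21 and 2.92 in host liver, 1.86, 1.88, 2.46 and 2.01 in host kidney and 2.48, 2.29 and 2.19 in control liver. Its neo-liver arrays were below all of host liver (-0.92 ± 0.23), and it was not called against control liver (-0.40 ± 0.25). Hadhb had levels of 5.14, 5.55, 6.19 and 5.92 in neo-liver, 5.70, 5.98, 6.60 and 6.35 in host liver, 5.85, 5.78, 6.18 and 5.72 in host kidney and 6.13, 5.98 and 5.76 in control liver. Its -0.45 ± 0.23 against host liver was not called, except under the block (-0.45 ± 0.07). The difference between the subunits themselves was not tested. Within each of the 4 mouse numbers both were lower in neo-liver than in host liver.

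Hadh, the short-chain hydroxyacyl-CoA dehydrogenase, ran from 5.57 to 5.82 in neo-liver, 6.15 to 6.57 in host liver, 5.23 to 5.59 in host kidney and 6.17 to 6.43 in control liver. It was lower in neo-liver than in either liver by the same amount (-0.59 ± 0.12 against host liver and -0.59 ± 0.13 against control liver), with no overlap. Acaa2, the mitochondrial thiolase, had levels of 7.52, 7.91, 8.11 and 7.87 in neo-liver, 8.82, 9.05, 8.73 and 8.85 in host liver, 6.29, 6.83, 7.30 and 6.49 in host kidney and 9.07, 9.08 and 9.02 in control liver. Neo-liver lay between the livers and the kidney on every array, lower than host liver (-1.01 ± 0.19) and control liver (-1.20 ± 0.20) and higher than host kidney (1.13 ± 0.19).

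Auxiliary enzymes reduce or move double bonds so that unsaturated chains can pass. Of these 5 genes, 4 were lower in neo-liver than in host liver (31.5% of all genes). Ech1, a dienoyl-CoA isomerase, had levels of 4.31, 4.72, 5.63 and 5.16 in neo-liver, 5.73, 5.86, 6.59 and 6.19 in host liver, 4.12, 4.27, 4.83 and 4.24 in host kidney and 5.83, 5.60 and 5.56 in control liver. It differed from host liver by -1.14 ± 0.27, with no overlap. Decr2, the peroxisomal dienoyl-CoA reductase, had levels of 4.56, 4.17, 4.37 and 3.94 in neo-liver, 5.39, 5.10, 5.18 and 4.73 in host liver, 2.78, 2.65, 3.27 and 2.23 in host kidney and 4.73, 4.78 and 4.66 in control liver. Neo-liver was below all of host liver (-0.84 ± 0.21) and above all of host kidney (1.53 ± 0.21). Decr1, the mitochondrial reductase, differed from host liver by -0.87 ± 0.26 on its brightest probe and by -0.33 on its other kept probe, and the probes disagreed in sign against host kidney (0.19 and -0.39). Eci2, an enoyl-CoA isomerase, differed from host liver by -0.93 ± 0.26. Eci1, its mitochondrial counterpart, was at -0.86 ± 0.36 and not called, but was called with mouse number as a block (SE 0.09). Against control liver only Eci2 of the 5 was called (-0.80 ± 0.29), a call that ended when any control array, neo-liver array 1 or neo-liver array 2 was left out.

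Of the 4 peroxisomal genes the 2 thiolases were called lower in neo-liver, both against host liver and against control liver (31.5% and 29.8% of all genes). Acaa1a had levels of 7.20, 7.44, 7.78 and 7.34 in neo-liver, 8.03, 8.42, 8.44 and 8.08 in host liver, 6.28, 6.45, 6.36 and 5.95 in host kidney and 8.15, 8.16 and 8.02 in control liver. Neo-liver was lower than host liver (-0.80 ± 0.15) and control liver (-0.67 ± 0.16) and higher than host kidney (1.18 ± 0.15), each without overlap. Acaa1b, its close paralog, had levels of 5.01, 5.53, 6.27 and 5.19 in neo-liver, 6.71, 7.38, 7.64 and 6.15 in host liver, 4.26, 4.51, 4.82 and 3.90 in host kidney and 6.72, 6.63 and 6.48 in control liver. Its -1.47 ± 0.33 against host liver was the largest fall among the 35 genes in that comparison; neo-liver array 3 overlapped host liver array 4. Against control liver it was lower (-1.11 ± 0.36), a call that ended when control array 1, control array 2, neo-liver array 1 or neo-liver array 4 was left out. Signals of such near-identical pairs can cross between probes, which the files do not resolve.

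Ehhadh, the peroxisomal enzyme that carries out both middle steps, had levels of 3.82, 4.68, 6.43 and 4.68 in neo-liver, 4.66, 5.62, 6.72 and 4.94 in host liver, 5.43, 5.30, 6.97 and 5.71 in host kidney and 5.62, 5.58 and 5.52 in control liver. It was not called in the fit of all arrays, array 3 was the highest in each host tissue, and under the block it was called lower in neo-liver against host liver (-0.59 ± 0.15) and host kidney (-0.95 ± 0.20). Pex11a, which drives peroxisome division, had levels of 4.71, 4.79, 6.28 and 5.84 in neo-liver, 6.01, 5.58, 7.02 and 6.68 in host liver, 4.33, 3.91, 5.17 and 4.37 in host kidney and 6.36, 6.42 and 6.57 in control liver. All neo-liver arrays were below control liver, with -1.04 ± 0.42 not called, and host liver was above host kidney (1.88 ± 0.39).

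The 4 acyl-CoA thioesterases, which release free fatty acid and whose genes lie together on chromosome 12, gave calls for Acot3 and Acot4 and, in the fit of all arrays, none for Acot1 and Acot2. Acot1, the cytosolic enzyme, had levels of 2.31, 3.36, 6.24 and 4.69 in neo-liver, 2.77, 4.67, 7.07 and 5.22 in host liver, 5.12, 4.42, 6.51 and 5.21 in host kidney and 5.24, 4.87 and 5.05 in control liver. Acot2, the mitochondrial one, had levels of -1.09, -0.11, 2.46 and 0.93 in neo-liver, -0.82, -0.23, 1.92 and 0.98 in host liver, 0.41, 0.19, 2.78 and 0.71 in host kidney and 0.16, -0.33 and -0.28 in control liver. Both spread widely over the hosts, overlapped control liver and were not called in the fit of all arrays; under the block Acot1 was called lower in neo-liver against host liver (-0.78 ± 0.17). Acot3, a peroxisomal enzyme, had levels of 2.03, 2.41, 2.42 and 3.16 in neo-liver, 4.27, 3.46, 3.52 and 4.33 in host liver, 2.51, 2.93, 3.36 and 2.55 in host kidney and 5.25, 5.39 and 4.89 in control liver. All neo-liver arrays were below all host liver arrays, and these below all control livers. Acot3 was lower in neo-liver than in host liver (-1.39 ± 0.28), lower in neo-liver than in control liver (-2.67 ± 0.30, adjusted p = 1.05e-05) and lower in host liver than in control liver (-1.28 ± 0.30, adjusted p = 0.00859). Acot4, also peroxisomal in mice, had levels of 1.97, 2.39, 2.36 and 2.73 in neo-liver, 2.85, 2.65 and 3.0 on host liver arrays 1 to 3, 2.68, 2.52, 2.69 and 2.52 in host kidney and 3.60, 3.66 and 3.46 in control liver. It was lower than in control liver in neo-liver (-1.21 ± 0.16) and in host liver (-0.74 ± 0.17). Its spot on host liver array 4 was flagged by the scanner software and left out, and the -0.47 ± 0.16 of neo-liver against the 3 remaining host liver arrays turned to 0.49 in the deposited values, which keep that spot.

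Bdh1, which interconverts the 2 main ketone bodies, had levels of 5.36, 5.34, 5.89 and 6.00 in neo-liver, 5.88, 6.24, 6.66 and 6.91 in host liver, 5.55, 5.40, 4.69 and 5.39 in host kidney and 5.35, 5.39 and 5.23 in control liver. It was higher in host liver than in control liver without overlap (1.10 ± 0.26), a 2.14-fold difference, and lower in neo-liver than in host liver (-0.77 ± 0.24). Without neo-liver array 1 or 2, or without host liver array 4, the second call was lost.

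Fabp1, the fatty acid carrier of the hepatocyte cytosol, had levels of 9.25, 9.11, 9.24 and 9.20 in neo-liver, 10.25, 10.17, 9.98 and 10.10 in host liver, 0.87, 1.01, 5.28 and 1.03 in host kidney and 9.57, 9.65 and 9.45 in control liver. Neo-liver was below control liver and host liver above it on every array, yet -0.93 ± 0.73 between neo-liver and host liver was not called. The SE is shared over groups and includes the spread in host kidney, where array 3 stood apart. Fitted on the arrays of the 2 tissues with mouse number as a block, the same difference had an SE of 0.08 and was called. Against host kidney it was higher by 7.15 ± 0.73 in neo-liver and 8.08 ± 0.73 in host liver.

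Plin2, a coat protein of lipid droplets, had levels of 5.07, 5.48, 7.08 and 6.87 in neo-liver, 6.76, 6.32, 7.34 and 7.37 in host liver, 3.43, 3.72, 5.32 and 3.55 in host kidney and 6.34, 6.35 and 6.26 in control liver. It was higher than in host kidney in neo-liver (2.11 ± 0.48) and in host liver (2.94 ± 0.48). Cidec, a droplet fusion protein that adipocytes also make, had levels of -0.84, 0.13, 3.56 and 2.92 in neo-liver, -1.05, -0.25, 2.86 and 0.97 in host liver, -4.99, 0.52, -0.84 and -2.27 in host kidney and -0.53, -0.70 and -0.49 in control liver. The one call in the fit of all arrays was neo-liver against host kidney (3.34 ± 1.21), lost without any of 4 arrays. Adipoq, which adipocytes alone make at high level, followed the same order as Cidec over the kidney arrays (-6.68, 0.77, -1.15 and -2.22) and a different one over the neo-liver arrays (-0.68, -0.51, -4.79 and 2.30). Of 10 adipocyte markers 7 were tested, and their summed linear level was 8.05 to 84.6 in neo-liver, 3.91 to 5.37 in host liver, 24.1 to 52.0 in host kidney and 4.18 to 5.17 in control liver. Their part in the Cidec values was not tested.

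Against host liver, the genes called lower in neo-liver came from the shuttle, the spiral, the auxiliary enzymes, the peroxisomal thiolases and the thioesterases, with Bdh1. The median difference of the 35 genes was -0.80, beside -0.21 over all genes tested, and 31 of the 35 were negative. The 10 hepatocyte markers had a median of -0.96 in the same comparison, with 7 called lower (31.5% of all genes) and 10 of 10 negative. Their part in the members' values was not tested. No overlap between the groups was seen for 13 genes, all lower in neo-liver (22.9% of all genes), and 13 of the 17 calls held when each array was left out in turn. Exceptions to the direction were Fgf21 (1.39 ± 1.78), Cidec (0.81 ± 1.21), Pdk4 (0.31 ± 0.75) and Acot2 (0.09 ± 0.77), none of them called. At an unadjusted p under 0.05 in limma, 20 genes were lower and 0 higher. Shares of all genes that were negative, or under 0.05 before adjustment, were not counted.

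The comparison with mouse number as a block sets each neo-liver against the host liver of the same number. It called 30 of the 35 genes, 29 lower and 1 higher (Fgf21). Over all genes 58.8% were called, 40% lower and 18.8% higher. The 13 added to the 17 were Ppara, Creb3l3, Fgf21, Angptl4, Cpt1a, Acadl, Hadhb, Eci1, Ehhadh, Pex11a, Acot1, Fabp1 and Plin2, and the 5 not called were Pdk4, Vnn1, Acot2, Cidec and Crat. Without a fit, 28 of the 34 genes with a value on all arrays were lower in neo-liver in 4 of 4 mice (46.9% of all genes), and 2, Fgf21 and Cidec, were higher in 4 of 4 (21.8%). Median differences of the listed genes within mice 1 to 4 were -0.88, -0.94, -0.66 and -0.68. Those of all genes were -0.23, -0.23, -0.19 and -0.23.

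These calls depend on how arrays are scaled to each other. Quantile normalization, which forces all arrays to 1 distribution, left 3 of the 17 calls, Acaa1b (-0.92 ± 0.32), Acot3 (-1.08 ± 0.29) and Hadha (-0.68 ± 0.23), with a median of -0.28 over the 35 genes. Under it the median of all genes moved by 0.14, and 17.2% of all genes were called higher and 16.6% lower. Centring on the median of each array, which moved all genes by -0.20, called 22 (44.8% of all genes lower). With the kidney content subtracted from each neo-liver array and the rest rescaled, 13 of the 35 were called, each of them lower (26.7% of all genes). Subtracted without rescaling, 24 were called, each lower (63.7%). The scatter of both scalings shows each gene.

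**Figure D2:**
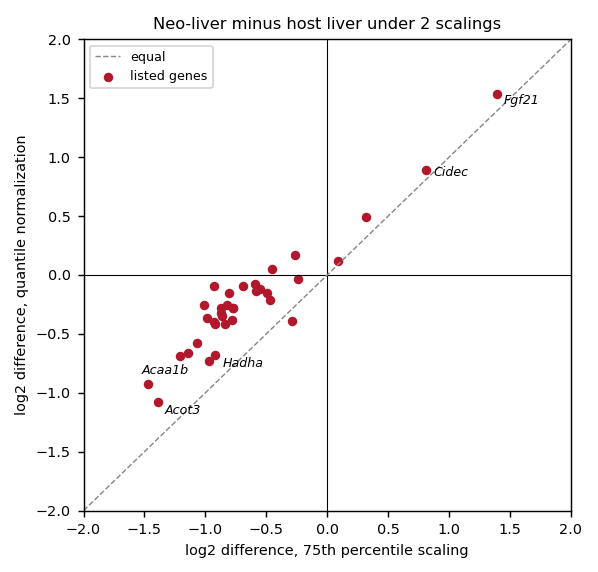
Neo-liver minus host liver, log2 difference of each of the 35 genes, with 75th percentile scaling on the x axis and quantile normalization on the y axis; the dashed line marks equal values. Most points lie above the line, closer to 0 after quantile normalization, while Acaa1b, Acot3 and Hadha stay below -0.6 on both axes.

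Against control liver, 12 of the 35 were lower and 2 higher in neo-liver, with a median of -0.57 beside -0.15 over all genes. Vnn1 and Pdk4 were the 2 that were higher. Among the 12 called lower, Acot3, Acot4, Acaa2, Acaa1b, Cpt2 and Slc25a20 had the largest falls. Pex11a, Angptl4 and Creb3l3 fell by more than Slc25a20 but were not called. The neo-liver arrays lay wholly below control liver for 17 genes (35.2% of all genes) and wholly above for 2 (21.9%). Of the 14 calls 9 held without any 1 array, and without control liver array 1 there were 9 in all. Quantile normalization called 5 of the 35, 3 higher and 2 lower (23.1% and 21.1% of all genes), with a median of -0.11. These were Vnn1 (4.58 ± 1.08), Pdk4 (2.36 ± 0.85), Bdh1 (0.78 ± 0.27), Acot3 (-2.28 ± 0.31) and Acot4 (-0.92 ± 0.15). With the kidney content subtracted and the rest rescaled, 8 were called, 1 higher and 7 lower (13.9% and 27.7% of all genes); Vnn1 was then at 2.11 and Pdk4 at 0.88, neither of them called. Subtracted without rescaling, 21 were lower and 1 higher (57.9% and 7.64% of all genes).

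**Figure D3:**
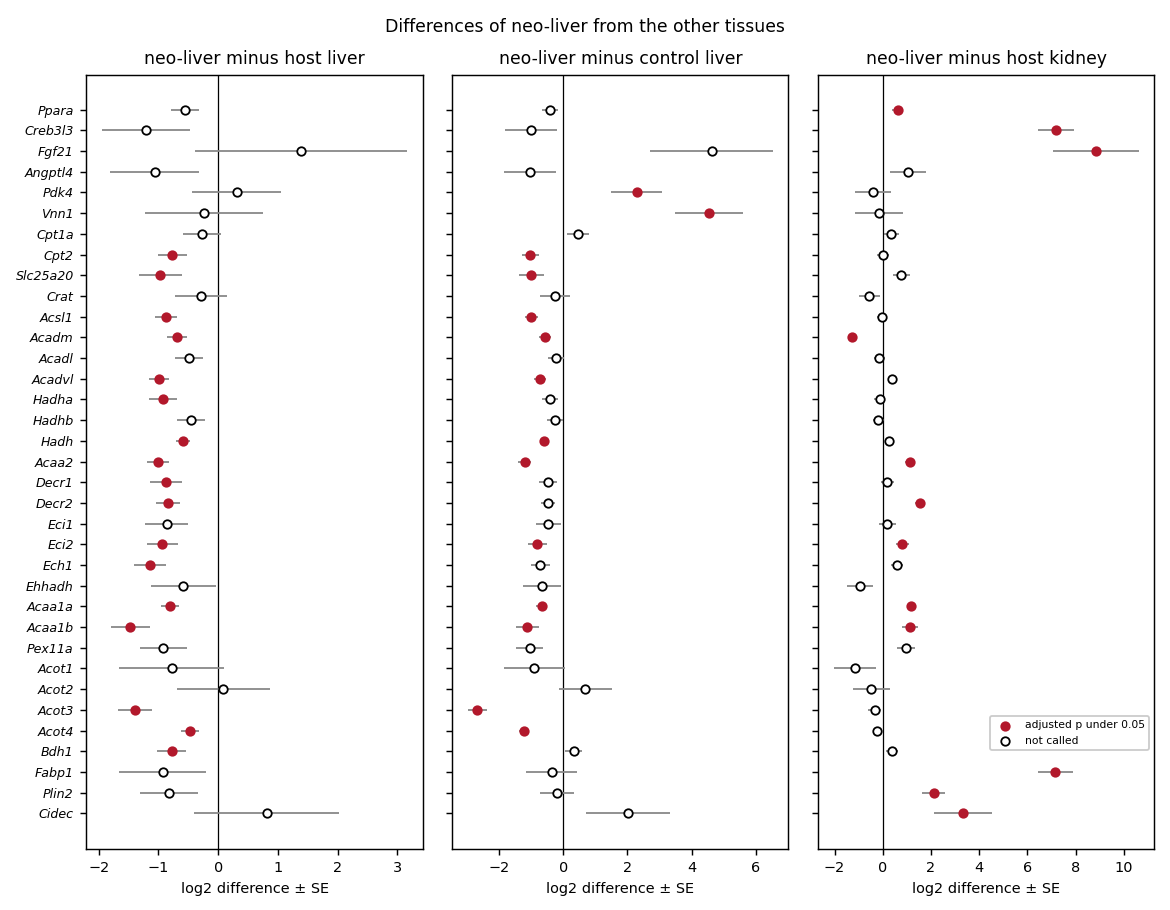
Log2 differences (points) with SE (bars) of the 35 genes for neo-liver minus host liver, neo-liver minus control liver and neo-liver minus host kidney; filled red points have an adjusted p under 0.05. In the first panel 31 of 35 points lie left of 0, Vnn1 and Pdk4 lie right of 0 in the second, and Acadm is the only filled point left of 0 in the third.

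Between host liver and control liver 4 of the 35 genes were called. The median difference was 0.21, beside 0.08 over all genes. Vnn1 (4.78 ± 1.07) and Bdh1 (1.10 ± 0.26) were higher in host liver, Acot3 (-1.28 ± 0.30) and Acot4 (-0.74 ± 0.17, 3 host liver arrays) were lower, and the 4 calls held without any 1 array. In 7 genes host liver lay wholly above control liver and in 2 wholly below (21.5% and 16% of all genes). The enzymes of the mitochondrial spiral ran from -0.19 ± 0.20 (Acaa2) to 0.52 ± 0.25 (Hadha), none called, and the 95% interval of the Hadha difference was -0.02 to 1.06.

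Against host kidney, Fabp1 and Creb3l3 differed by more than 7 on the log2 scale in both neo-liver and host liver. The size of the Fgf21 difference is not given a rank, because 3 of 4 kidney arrays were not well above background. In neo-liver 11 genes were higher, among them Acaa1a, Acaa1b, Acaa2, Decr2 and Plin2, and 1, Acadm, was lower; 9 of these 12 calls held without any 1 array, and those of Cidec, Eci2 and Ppara did not. The median was 0.36 for neo-liver against host kidney (-0.09 over all genes). For host liver against host kidney it was 1.06 (0.14 over all genes), with 23 genes higher and Acadm lower (-0.60 ± 0.17). Groups did not overlap for 7 genes above and 1 below in neo-liver (21% and 28.4% of all genes), and for 20 above and 0 below in host liver (34.6% and 27.9%). Quantile normalization called 14 of the 35 for host liver, 13 higher and 1 lower (32.2% and 36.1% of all genes), and under it the medians were 0.09 for neo-liver and 0.45 for host liver. With the kidney content subtracted and the rest rescaled, 16 were higher and 3 lower in neo-liver (26.7% and 34% of all genes). Subtracted without rescaling, 9 were higher and 9 lower (14.2% and 54.3%), with a median of -0.09.

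Within each host tissue the genes varied together by mouse number, a pattern noticed after the values were seen and given without a test. Of the 34 genes with a value on all arrays, 25 had their highest neo-liver level on array 3 (73.5%; 24.9% of all genes), 23 their highest host liver level (67.6%; 23.6%) and 30 their highest host kidney level (88.2%; 26.7%). In 20 genes array 3 was the highest in all 3 tissues (58.8%; 6.5% of all genes), and in 0 genes was number 1, 2 or 4 (8.58%, 7.41% and 2.58% of all genes). At the low end, 24 of the 34 had their lowest neo-liver level on array 1 (70.6%; 35.5%). The order of the 4 numbers was the same in neo-liver and host liver for 19 genes (55.9%; 19.9%).

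**Figure D4:**
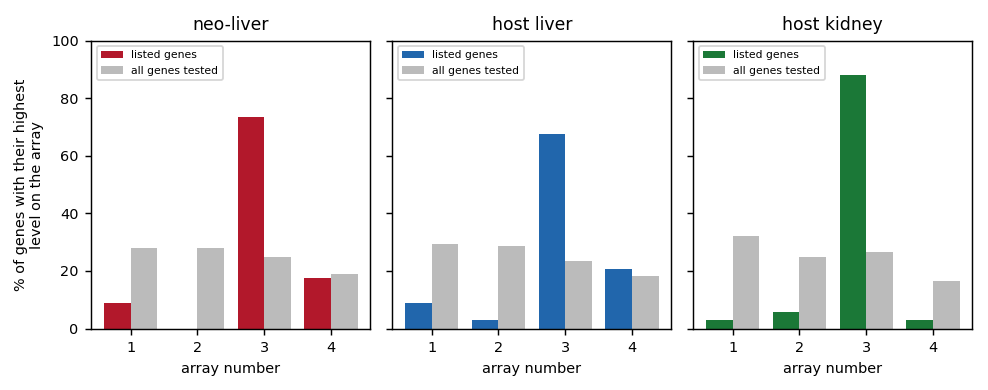
Share of genes (y axis, %) with their highest level on each of the 4 arrays of a host tissue (x axis), for the 34 listed genes with all values (coloured bars) and all genes tested (grey bars). The coloured bars for array 3 reach 73.5% in neo-liver, 67.6% in host liver and 88.2% in host kidney, where the grey bars lie between 23.6% and 26.7%.

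Sizes differed by gene. On neo-liver array 3, Fgf21 was 3.49 above the median of the other neo-liver arrays, Cidec 3.42, Vnn1 2.98, Acot1 2.89 and Acot2 2.57 (log2). On host liver array 3 the same genes were 3.70, 3.12, 3.19, 2.41 and 2.15 above. On host kidney array 3, Fabp1 was 4.27, Creb3l3 4.14, Fgf21 3.93, Vnn1 2.91, Angptl4 2.88, Pdk4 2.61 and Acot2 2.37 above. Fgf21 was above background on that kidney array alone. The enzymes of the spiral moved less, as with Acadvl at 0.58 in neo-liver, 0.37 in host liver and 0.54 in host kidney. The median SD of the 35 genes was 0.56 in neo-liver, 0.42 in host liver, 0.43 in host kidney and 0.10 in control liver, where that of all genes was 0.28, 0.30, 0.18 and 0.11.

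**Figure D5:**
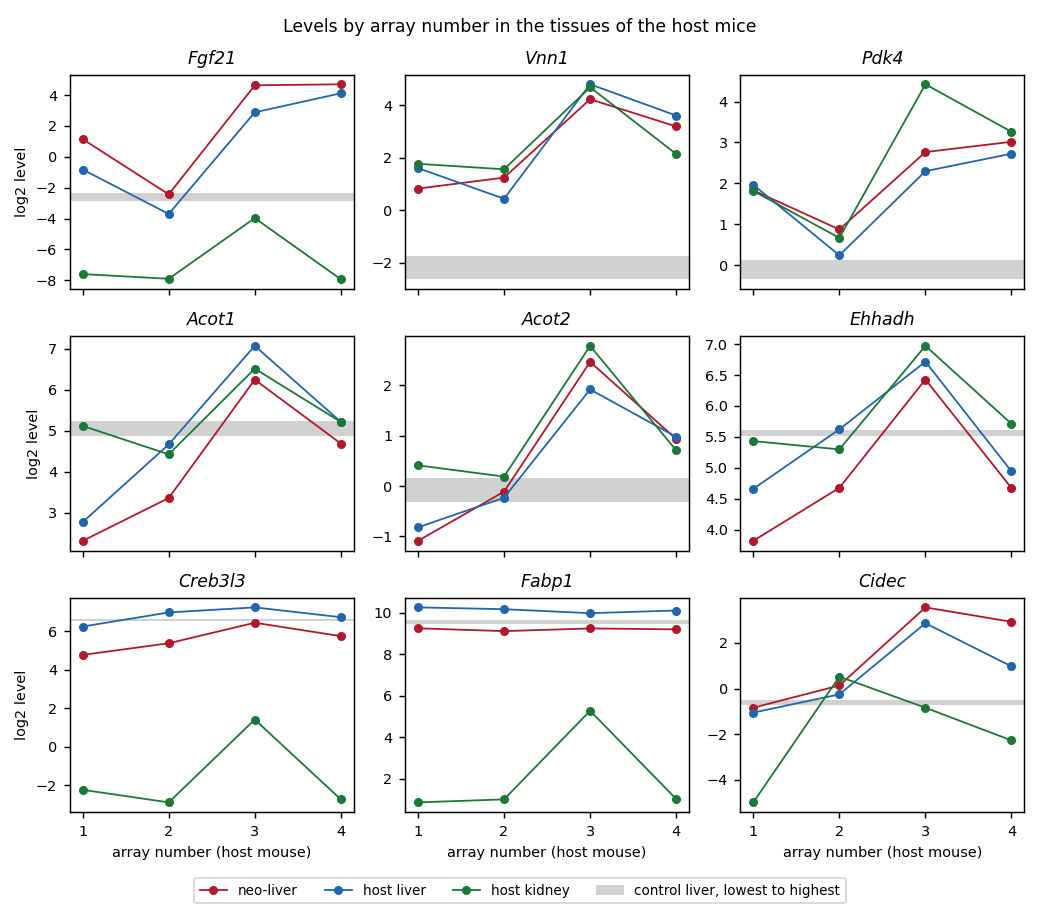
Log2 levels of 9 genes (y axis) by array number (x axis), taken as mouse number, in neo-liver (red), host liver (blue) and host kidney (green), with the range of the 3 control livers as a grey band. Number 3 is the highest for Vnn1, Acot1, Acot2 and Ehhadh in each tissue, Fgf21 is highest on number 4 in neo-liver and host liver, and Fabp1 and Creb3l3 peak on number 3 in kidney.

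Host kidney array 3 was set apart by Fabp1 and Creb3l3. Fabp1 there was at 5.14% of its control liver signal, against 0.242% to 0.271% on the other 3 kidney arrays, and Creb3l3 at 2.79%, against 0.142% to 0.223%. The median of 10 hepatocyte markers was 0.0267% on that array and 0.0223% to 0.0496% on the others, and Alb was lowest on that array, at -0.31, 0.49, -0.58 and -0.08 over kidney arrays 1 to 4. By other measures the same markers were highest there: their summed linear level was 11.3, against 9.45 to 10.5 on the other kidney arrays, and the largest share of control liver for any of the 10 was 5.05%, against 3.13% to 4.39%. The part of hepatocyte RNA in the Fabp1 and Creb3l3 values was not tested. The PPARA targets Cyp4a10 (5.97, 6.06, 7.90 and 6.39) and Cyp4a14 (6.14, 6.37, 8.39 and 6.65) were also highest on kidney array 3. That array was the highest kidney array for 26.7% of all genes. Both genes were picked from a wider list, and the part of PPARA in the pattern was not tested. The 75th percentile of the raw signal was also highest on the arrays numbered 3, at 676 of 416 to 676 in neo-liver, 448 of 287 to 448 in host liver and 874 of 561 to 874 in host kidney. Its part in the pattern was not tested. Without the 3 arrays numbered 3, 22 of the 35 were called lower in neo-liver against host liver (26.9% of all genes) and 19 against control liver (28.8%).

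Genes of the wider pathway were also listed by name. Their counts are to be read against the shares of all genes given above, 31.5% lower and 17.1% higher in neo-liver against host liver, 29.8% and 20.4% against control liver, and 29.5% and 23.2% against host kidney. Of 20 other mitochondrial oxidation genes, neo-liver was lower in 14 and higher in 1 against host liver, with Acads (-1.03 ± 0.25) and Etfb (-0.97 ± 0.10), an electron carrier for the dehydrogenases, among the lower. Of 25 peroxisomal and omega-oxidation genes, 14 were lower and 2 higher; Cyp4a12a, an omega-hydroxylase, was among the higher (3.11 ± 0.96). Against control liver the same 2 lists had 18 and 14 genes lower and 1 and 2 higher. In host liver against control liver they had 3 and 0 lower and 1 and 1 higher (11.2% lower and 13.4% higher over all genes).

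Genes called higher in neo-liver against host liver included Oxct1 and Fabp3. Oxct1, which lets tissues outside the liver use ketone bodies, had levels of 5.12, 6.21, 4.61 and 5.57 in neo-liver, 1.23, 0.89, 0.57 and 1.18 in host liver, 7.75, 7.63, 7.14 and 7.31 in host kidney and 0.68, 1.02 and 0.82 in control liver. Neo-liver was between the organs, above host liver (4.41 ± 0.28) and below host kidney (-2.08 ± 0.28). Fabp3, a fatty acid carrier of muscle and kidney, likewise stood above host liver (4.89 ± 0.29) and below host kidney (-1.91 ± 0.29). Both were highest on neo-liver array 2, the array with the highest kidney content. The part of kidney RNA in their values was not tested. Slc27a5, a bile acid and fatty acid CoA ligase of liver, fell in neo-liver relative to host liver (-1.41 ± 0.23). Of 21 uptake and activation genes, 6 were lower and 3 higher in neo-liver against host liver, and of 8 ketone body genes 1 was lower and 3 higher. The counts for uptake and activation were near the shares of all genes.

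Of 23 regulators, neo-liver was lower in 8 and higher in 3 against host liver, which is near the shares of all genes. Rxra, the partner of PPARA on DNA, was lower (-1.31 ± 0.31), with levels of -1.53, -0.39, -0.16 and -0.54 in neo-liver, -0.13, 1.19, 1.03 and 0.51 in host liver, -2.13, -1.93, -1.65 and -2.38 in host kidney and 0.67, 0.68 and 0.50 in control liver. Ppargc1a, a coactivator of oxidation genes that is strong in kidney, was higher in neo-liver against host liver (1.00 ± 0.16) and lower against host kidney (-1.71 ± 0.16). Pparg, the receptor linked to fat storage, was higher in host liver than in control liver (1.17 ± 0.26). Ppard, Cyp4a10 and Cyp4a14 were not called in any of the 5 comparisons of that fit. Of 17 tested genes of lipid droplets and lipolysis, 4 were lower, a share under that of all genes, and 0 higher in neo-liver against host liver, while 9 were higher and 0 lower against host kidney.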

How the data were processed

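RNA of 15 tissues was measured on one-colour Agilent arrays, 1 per sample. Per the file headers, the deposited scanner files hold intensity values, background-subtracted and detrended within each array by Agilent Feature Extraction (version 10.10.1.1, per the submitters' processing notes). The log2 values that the authors also deposited equal log2 of that signal shifted by a constant for each array, to within 0.01 for 99.8% to 99.9% of probes; the sources used here do not say how it was set.

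Spots flagged as outliers were left out, spots of a probe were averaged, and log2 signals were set relative to the 75th percentile of the array. Probes well above background on every array of at least 1 group were kept, and the brightest probe of each RefSeq symbol was used, which gave 15622 genes. No spot was saturated. The array design is annotated on mm9, so gene positions are given only for RefSeq windows. An array has no read depth, and the number of arrays limits the precision. Groups were compared with limma 3.58.1 in R 4.3.3, two-sided, with Benjamini-Hochberg adjustment; the steps were tested on simulated data. Whether samples of a group came from separate mice is stated only through the numbers in the titles.

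Same-numbered arrays of the host tissues had residuals correlated above 0.1 in every pair (0.179 to 0.577), each best with its own number, so the number was used as a replicate block; control livers did not pair with hosts (-0.125 to 0.066). Alternatives were other scalings, background correction, filters, probe choice, blocks, fits of 2 groups, subtraction of kidney content and leaving out arrays. Rescaling after subtraction, the proximal tubule share and leaving out the arrays numbered 3 were chosen after seeing the data. The 35 genes, the lists and the rule for naming genes (lead genes of each step with all values, others by range or difference, and up to 3 called genes per list and direction) were chosen with earlier results of these data known, so counts over them are descriptions. Some genes of the wider lists are not reported here by name.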

Additional observations from a re-analysis of the deposited data

Results flagged for a closer look

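In 6 of 104 groups of 4 arrays checked, 1 array lay farther from the others than the gap test at the 95% level allows, where chance gives about 5.2. Acadm was high on host liver array 3 (8.02, with the other 3 host liver arrays at 7.39 to 7.44). The other 5 were all on host kidney array 3, where Fgf21 was at -3.97, Fabp1 at 5.28, Plin2 at 5.32, Eci1 at 6.32 and Creb3l3 at 1.41, each the highest of its group.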

How the results depend on the processing

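Counts of called genes among the 35 moved by over 1.5 times under these settings. The share of all genes called follows each count in brackets. For neo-liver against control liver, with 14 called (50.2%), quantile normalization gave 5 (44.3%) and the replicate block 9 (31.7%). The kidney share subtracted gave 22 (65.5%), subtracted and rescaled 8 (41.6%), and the proximal tubule share subtracted and rescaled 7 (35.2%). Without control liver array 1 the count was 9 (41%). For neo-liver against host liver, with 17 (48.6%), quantile normalization gave 3 (33.9%), the proximal tubule share subtracted and rescaled 10 (29.4%), and the replicate block 30 (58.8%). For host liver against control liver, with 4 (24.7%), the replicate block gave 0 (0.064%). Under that block 7 of the 35, 5 higher and 2 lower, had an unadjusted p under 0.05 in limma. The share of all genes at that unadjusted p was not counted. For neo-liver against host kidney, with 12 (52.7%), the kidney share subtracted and rescaled gave 19 (60.8%), and the proximal tubule share so treated also 19 (60.2%). For host liver against host kidney, with 24 (70.8%), quantile normalization gave 14 (68.3%). Numbers do not pair control livers with hosts, so the block has no pairing to use there. Leaving out each array in turn gave 9 to 15, 13 to 21, 4 to 5, 10 to 16 and 23 to 26 in the order above. Acot4 in neo-liver against host liver turned to 0.49 in the deposited log2 values and to 0.90 with normexp background correction, both of which keep the spot left out elsewhere. The direction of no other called difference of the 35 genes turned. In neo-liver, those called in every setting were Acot3 against control liver, Hadha and Acot3 against host liver, and 9 genes against host kidney. In host liver, 13 genes were called in every setting against host kidney and 0 against control liver. Where a gene is dim, as Fgf21 in kidney, the size of its difference is limited by signal over background.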
